A study of Homo sapiens with 5 samples.

Results

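The genes described here are 38 genes of the endoplasmic reticulum (ER) that fold secretory proteins, sense unfolded ones and send failed ones for degradation. They were chosen by name, as known members of these pathways, out of 57221 gene symbols in the deposited count table. Earlier results of these data were known when they were chosen, so their shares beside those of all genes are a description. By role, 21 are folding enzymes and chaperones, 6 are stress sensors and their processing or transcription factors, and 11 act in ER-associated degradation (ERAD). Of the 38 genes, 36 had at least 10 counts in at least 2 libraries and were tested.

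RNA was sequenced from NK92MI, 1 human line of natural killer (NK) origin, in which an IL2 transgene replaces interleukin 2 in the medium. After 48 h in DMSO, the solvent, 2 libraries were made (replicates 1 and 2), and after 48 h in 10 µM UNC1999, 3 libraries (replicates 1 to 3). UNC1999 inhibits EZH2 and EZH1, the enzymes that methylate lysine 27 of histone H3. The comparison asks which of the ER genes differed in RNA level between the treated and the solvent libraries. Nothing in the labels ties a library to a culture of its own, and the p-values reflect no more than the spread between these samples, and that spread may be technical.

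Secretory and membrane proteins enter the ER unfolded. HSPA5 (BiP) and its cofactors hold them, calreticulin and calnexin hold their sugar chains, and protein disulfide isomerases form their disulfide bonds. When unfolded proteins gather, ERN1 (IRE1) splices XBP1 mRNA into the form that encodes an active transcription factor. ATF6 moves to the Golgi, where the proteases encoded by MBTPS1 and MBTPS2 cleave it and release another factor. Both factors raise chaperone and ERAD genes. NK cells make their perforin, granzymes and cytokines through the ER.

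ATF6 and XBP1 are known to act through short promoter elements, so the promoters were read first. In RefSeq (GRCh38.p14), 35 of the 38 genes had an entry covering 250 bases before to 50 bases after a start site. The ER stress element, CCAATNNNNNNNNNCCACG on either strand, lay in the entries of 7 of the 35 genes (20%) and of 25 of all 27305 genes (0.0916%). The element was defined on ER chaperone genes, so this share is not independent of how the 38 genes were chosen. The elements are shown with capitals on the fixed letters, written in the direction of the motif, since known UPR targets such as HSPA5 and XBP1 carry them.

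CALR element: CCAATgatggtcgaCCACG
CANX element: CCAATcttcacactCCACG
CRELD2 element: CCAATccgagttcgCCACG
HSP90B1 element a: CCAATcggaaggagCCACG
HSP90B1 element b: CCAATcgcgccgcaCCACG
HSPA5 element: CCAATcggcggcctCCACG
PDIA6 element: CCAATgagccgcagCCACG
XBP1 element: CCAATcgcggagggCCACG
HERPUD1 element II: ATTGGgCCACG
HYOU1 element II: ATTGGaCCACG
SDF2L1 element II: ATTGGtCCACG

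The centre of the element lay 43 bases before a listed start in XBP1, 57 in HSPA5, 77 in PDIA6, and 185 and 80 in HSP90B1. XBP1 and PDIA6 each also had an entry, for another start, without the element. Which start these cells use was not measured. In GRCh38.p14 the elements lie at chr22:28800603-28800621 (XBP1), chr9:125241391-125241409 (HSPA5), chr2:10812853-10812871 (PDIA6), and chr12:103930216-103930234 and chr12:103930321-103930339 (HSP90B1). The last 3 lines show the related element II, ATTGGNCCACG, found in 3 of the 35 genes (8.57%) and in 19 of 27305 genes (0.0696%). HYOU1, which encodes a large ER chaperone, had it 2 times, both with the letters shown. The UPR element core TGACGTG was found in 4 of the 35 genes (DNAJC10, HYOU1, TXNDC11 and TXNDC5) and in 2.4% of all genes. One HYOU1 copy of element II overlaps that core in its letters.

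The 250 bases before the start are printed for 3 genes that the results return to, with the elements in capitals as they read on the gene's strand. XBP1 is at chr22:28800570-28800819, HSPA5 at chr9:125241344-125241593 and HYOU1 at chr11:119057206-119057455, all GRCh38.p14 and all on the minus strand.

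XBP1 upstream: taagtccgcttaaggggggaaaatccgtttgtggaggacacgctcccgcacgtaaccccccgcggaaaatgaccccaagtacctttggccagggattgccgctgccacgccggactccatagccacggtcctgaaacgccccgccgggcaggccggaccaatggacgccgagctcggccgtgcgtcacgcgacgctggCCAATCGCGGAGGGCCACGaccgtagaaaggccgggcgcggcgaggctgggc
HSPA5 upstream: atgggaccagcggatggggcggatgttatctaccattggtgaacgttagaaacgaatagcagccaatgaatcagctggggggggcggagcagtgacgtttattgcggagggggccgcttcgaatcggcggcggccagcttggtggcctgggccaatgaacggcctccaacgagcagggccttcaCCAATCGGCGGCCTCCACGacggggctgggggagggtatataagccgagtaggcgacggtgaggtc
HYOU1 upstream: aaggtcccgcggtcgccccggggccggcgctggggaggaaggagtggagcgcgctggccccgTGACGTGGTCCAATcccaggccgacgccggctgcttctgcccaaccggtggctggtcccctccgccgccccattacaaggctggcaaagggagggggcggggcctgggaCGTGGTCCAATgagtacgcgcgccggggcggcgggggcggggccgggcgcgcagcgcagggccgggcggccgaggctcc

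Libraries were alike in depth, with 8442908 to 8748106 counts in genes. UNC1999 replicate 2 stood apart from the other 2 treated libraries. Its chi-square per degree of freedom over 13137 genes was 8.06 against replicate 1 and 9.45 against replicate 3, where replicates 1 and 3 gave 1.86 and the DMSO pair 3.28. All 12 NK markers were measured, with summed levels of 7586 and 7741 CPM (counts scaled to a common library size) in DMSO and 7073 to 7689 in UNC1999. The lowest of them were FCER1G, CD2 and KLRD1, with DMSO means of 2.55, 15.9 and 21.2 CPM. T cell CD3D, CD3G, CD4 and CD8B, B cell MS4A1 and myeloid LYZ were at 0 counts in every library. Other marker genes of these cell types reached at most 25.0 CPM (PAX5 in DMSO replicate 1), and some moved with treatment. The 6 T cell markers summed to 1.54 to 1.61 CPM in DMSO and 2.73 to 4.40 in UNC1999, nearly all of it CD6 (1.10; edgeR adjusted p = 0.00892). The 6 myeloid markers summed to 15.4 to 17.0 and 10.8 to 11.97 CPM, with S100A9 at -1.05 (edgeR adjusted p = 7.94e-05). CSF1R, with means of 5.46 CPM in DMSO and 6.05 in UNC1999, was not called (edgeR adjusted p = 0.638). The 8 B and plasma cell markers summed to 24.6 to 25.8 and 17.8 to 25.1 CPM, nearly all of it PAX5. PAX5 had means of 24.0 CPM in DMSO and 20.2 in UNC1999 and was not called (edgeR adjusted p = 0.184). Of the NK markers CD7 was called, at 0.84 (edgeR adjusted p = 8.04e-06). With the GC and length offsets described below, CD7 (0.68) and PRF1 (0.25) were called higher. GZMA (-0.28) and KLRD1 (-0.71, using a transcript of 15549 bases) were then called lower. The part of these markers in the results below was not tested.

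In TMM-scaled CPM, transcripts of the ER genes were lower in sum after UNC1999, and within each class individual genes went both ways. By edgeR's quasi-likelihood test (Benjamini-Hochberg over 13137 genes, threshold 0.05), 17 of the 36 tested genes fell, 8 rose and 11 did not pass. Over all 13137 genes tested, 19.4% were called lower, 15.7% higher and 35.0% in either direction. The median log2 fold change was -0.18 over the 36 genes and -0.01 over all genes, and none of the 36 reached a 2-fold change. Without UNC1999 replicate 2, the counts were 19 lower and 8 higher (3034 and 2858 of all genes), and all 25 calls were kept. Dropping UNC1999 replicate 1 gave 13 lower and 5 higher (1938 and 1741 of all genes). Dropping replicate 3 gave 14 and 6 (2041 and 1826 of all genes). Leaving out either DMSO library left 1 solvent library, and fewer of the 36 genes and fewer of all genes were then called. The split also moved with the scaling: with no normalization factors 10 of the 36 genes were lower and 9 higher (1739 and 2943 of all genes), and with upper-quartile factors 14 and 8 (2049 and 2582 of all genes), against 2546 lower and 2056 higher of all genes with TMM factors.

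Summed over the 38 genes, the level was 10110 ± 389 CPM in DMSO (SD, n = 2) and 8274 ± 188 in UNC1999 (SD, n = 3), a log2 ratio of -0.29. Folding genes held 86.7% of that sum in DMSO. They went from 8768 ± 373 to 7205 ± 160 CPM, the sensors from 578 ± 9.54 to 396 ± 23.4 CPM, and the degradation genes from 764 ± 6.75 to 673 ± 10.0 CPM. In each class every UNC1999 library lay below both DMSO libraries. These sums carry TMM factors of 0.9535 and 0.9619 in DMSO and 1.0116 to 1.0522 in UNC1999. No sum was made with other factors or with the GC and length offsets described below. Of the genes with the highest CPM, offsets put CALR at -0.14, P4HB at -0.09, HSPA5 at -0.15 and PDIA6 at -0.39. Under the transcript definition kept in the text, only PDIA6 of these was called. In RNA from whole cultures, fewer cells of a kind and less RNA per cell cannot be told apart.

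**Figure D1:**
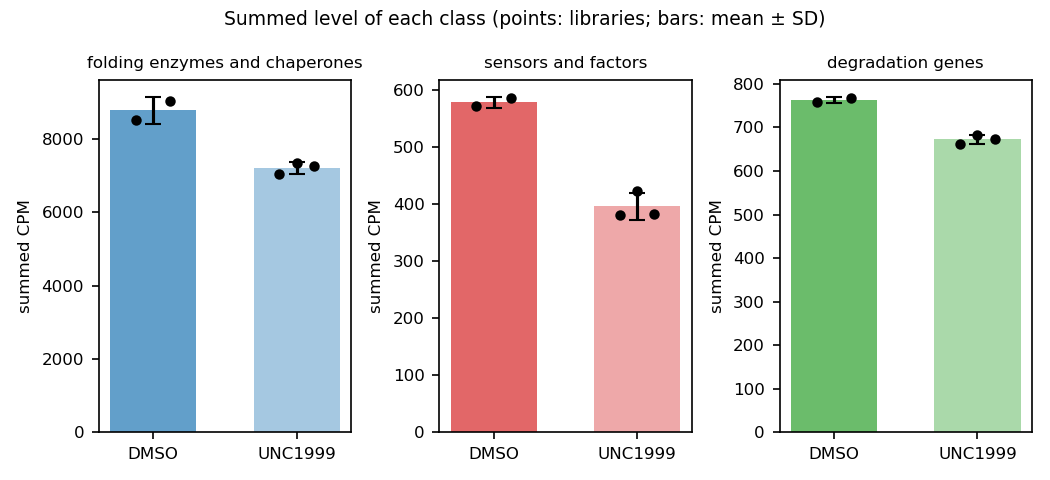
Summed TMM-scaled CPM, without offsets (vertical axes, from 0), of the folding, sensor and degradation genes in DMSO and UNC1999 cells. Points are libraries, bars are means and error bars are SDs (n = 2 DMSO, n = 3 UNC1999), and in all 3 classes the UNC1999 points lie below the DMSO points.

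Fold changes in these libraries moved with the GC content of the transcript across all genes. Medians of log2 fold change were 0.44 in the lowest GC decile, -0.35 in the sixth and 0.17 in the highest, over 11285 genes with a known GC content and length. The ER genes followed the same order: the 8 that rose had 35.9% to 42.4% GC and the 17 that fell had 39.4% to 55.2%. Spearman's rho between log2 fold change and GC content was -0.49 across the 36 genes and -0.23 across all genes, as a description of genes that share the same 5 libraries. The change of each called gene named below is therefore also given from a fit with offsets. These subtract from each library its own smooth trend in GC content and length. With offsets, 9 of the 36 genes were called lower and 5 higher, against 18.7% lower, 14.5% higher and 33.2% in either direction over 11285 genes.

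GC content and length were taken from the longest basic protein-coding transcript of each gene. That definition was settled on only after results with 2 others, the longest transcript of any type and the median over basic transcripts, had been seen. Offset values below are from the longest basic coding transcript unless another definition is named, and where another definition changed a call its value is given. Set beside the median of all genes in the same GC decile, 25 of the 36 genes lay below it and 11 above it, as a description.

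**Figure D2:**
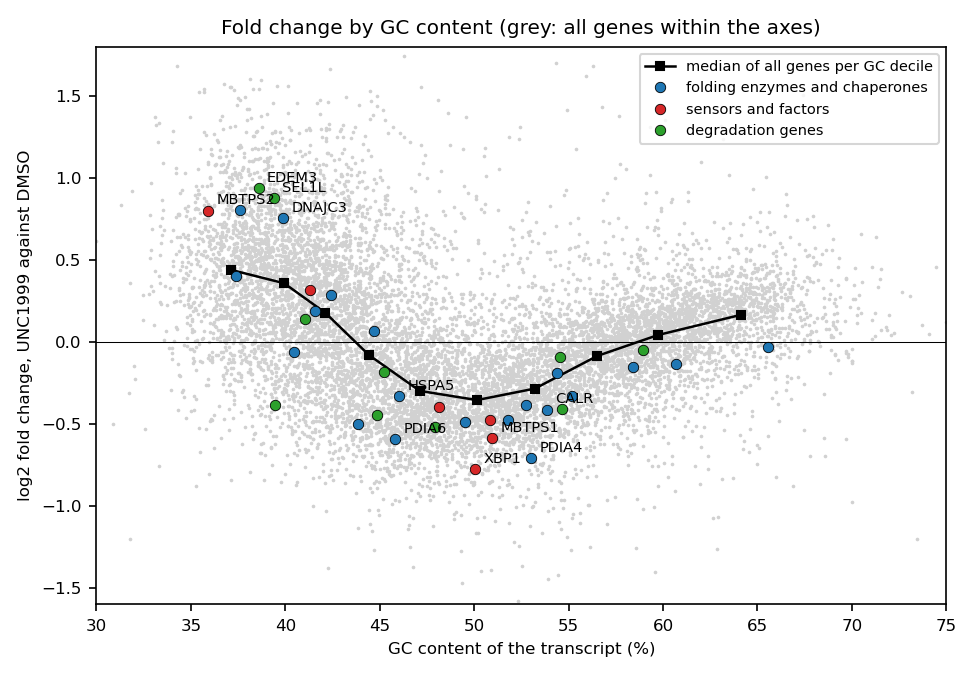
GC content of the transcript (horizontal axis, percent) against log2 fold change of UNC1999 over DMSO (vertical axis). Grey points are single genes within the axes, coloured points the 36 ER genes by class, and black squares the median fold change of all genes at the median GC content of each decile, from 0.44 in the lowest decile to -0.35 in the sixth. XBP1, PDIA4 and MBTPS1 lie below the black line, and SEL1L, EDEM3 and DNAJC3 above it.

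Among the sensors and factors, all 6 passed the test, 4 lower (66.7%) and 2 higher (33.3%). Over all 13137 genes, 19.4% were called lower and 15.7% higher. XBP1, the transcription factor gene whose mRNA ERN1 splices, fell most of the 36 genes. Its level was 295 and 324 CPM in DMSO and 174, 191 and 176 CPM in UNC1999. All 3 treated libraries were well below both solvent libraries, at -0.78 ± 0.11 in log2 fold change (SE; edgeR adjusted p = 7.68e-07). The fit with offsets gave -0.40 (edgeR adjusted p = 1.47e-05), and over the 3 transcript definitions it ran from -0.91 to -0.40, below 0 and called in each. Gene counts sum the spliced and unspliced forms of XBP1, so its splicing was not measured here.

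ERN1, the ER kinase and RNase that carries out the splicing, was low in all libraries, with 19.9 and 16.0 CPM in DMSO and 13.2, 12.3 and 13.2 CPM in UNC1999. The groups did not overlap, and the fold change was -0.47 ± 0.15 (SE; edgeR adjusted p = 0.0121). Leaving out DMSO replicate 1, the higher of the solvent pair, brought it to -0.31 (edgeR adjusted p = 0.285). With offsets it was -0.29 (edgeR adjusted p = 0.0866), and with the median transcript definition it was called, at -0.42 (edgeR adjusted p = 0.0124).

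The branch run by ATF6 split. MBTPS1, the protease that makes the first cut in ATF6, had 178 and 165 CPM in DMSO and 109.5, 124 and 108 CPM in UNC1999. It was lower in every treated library, by -0.59 ± 0.11 on the log2 scale (SE; edgeR adjusted p = 6.28e-05), and by -0.28 with offsets (edgeR adjusted p = 0.00229). MBTPS2, the protease of the second cut, had 9.07 and 7.96 CPM in DMSO and 16.2, 16.0 and 12.3 CPM in UNC1999. This gene was higher in every treated library, by 0.80 ± 0.17 (SE; edgeR adjusted p = 0.000398), and by 0.41 with offsets (edgeR adjusted p = 0.0472). With the median transcript definition the MBTPS2 value was 0.35 (edgeR adjusted p = 0.0864). In GENCODE 29, 12.2% of its exonic bases also belong to YY2 on the same strand.

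ATF6 itself, the membrane-bound factor, had 38.5 and 41.8 CPM in DMSO and 46.2, 55.2 and 48.9 CPM in UNC1999. It rose by 0.32 ± 0.12 (SE; edgeR adjusted p = 0.0382), close to the threshold, with groups that did not overlap. Dropping either DMSO library or UNC1999 replicate 3 ended the call (0.267 without DMSO replicate 1, 0.0933 without replicate 2 and 0.062 without the treated library, as edgeR adjusted p). With offsets the value turned to -0.03 (edgeR adjusted p = 0.842). CREB3L2, a related membrane-bound factor cleaved by the same proteases, had 31.8 and 31.1 CPM in DMSO and 22.1, 24.9 and 24.8 CPM in UNC1999. Its change was -0.39 ± 0.13 (SE; edgeR adjusted p = 0.0139), and -0.23 with offsets (edgeR adjusted p = 0.0989) or -0.04 with the median definition. The CREB3L2 call was also lost when either DMSO library or UNC1999 replicate 1 was dropped (0.117 without DMSO replicate 1, 0.0803 without replicate 2 and 0.0915 without the treated library, as edgeR adjusted p).

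**Figure D3:**
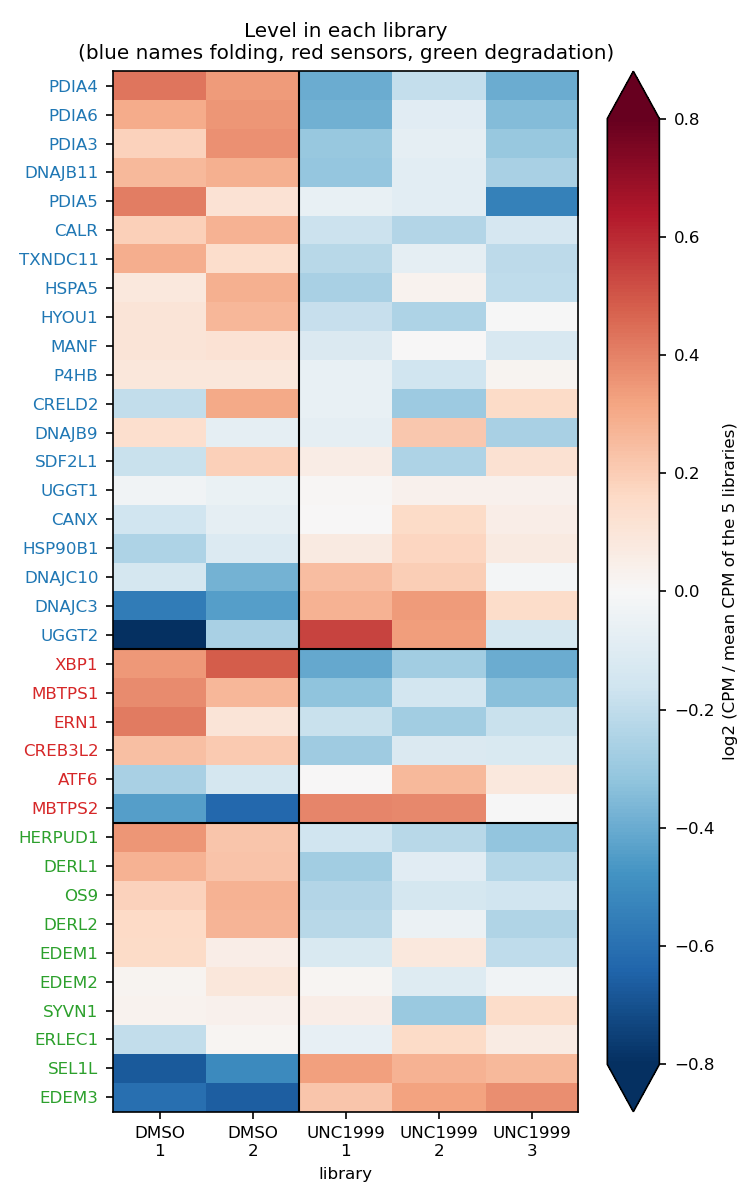
Level of each of the 36 tested genes in each library (columns) as the log2 ratio of its CPM to its mean over the 5 libraries (colour, blue low and red high). Names are coloured by class. XBP1 and PDIA4 are red in both DMSO columns and blue in all UNC1999 columns, while SEL1L and EDEM3 show the opposite.

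Of 20 tested folding genes, 9 fell, 4 rose and 7 did not pass, with a median log2 fold change of -0.17. Those shares, 45% lower and 20% higher, stand beside 19.4% and 15.7% over all 13137 genes. Of the disulfide isomerases, PDIA3, PDIA4, PDIA5 and PDIA6 fell and P4HB did not pass, at -0.15 ± 0.11 (SE). PDIA4 had 577 and 543 CPM in DMSO and 326, 376 and 326 CPM in UNC1999. Each treated library was far below the solvent pair, a change of -0.71 ± 0.11 (SE; edgeR adjusted p = 3.69e-06) and of -0.40 with offsets (edgeR adjusted p = 1.44e-05). PDIA6 is the isomerase gene with the ER stress element 77 bases before a listed start. It had 665 and 690.3 CPM in DMSO and 414, 507 and 425 CPM in UNC1999. That was a change of -0.59 ± 0.11 (SE; edgeR adjusted p = 5.51e-05), and of -0.39 with offsets (edgeR adjusted p = 7.67e-06). Of the exonic bases of PDIA6, 25.2% lie opposite ATP6V1C2, and no source used here gives the strand setting of the counting.

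PDIA3, the isomerase that works with calreticulin and calnexin, had 505 and 575 CPM in DMSO and 361, 424 and 361 CPM in UNC1999. It fell by 0.50 on the log2 scale (SE 0.11; edgeR adjusted p = 0.000492), and the offsets left it at -0.49 (edgeR adjusted p = 2.23e-07). Leaving out DMSO replicate 2 gave -0.40 (edgeR adjusted p = 0.065). TXNDC11, an ER thioredoxin-domain protein gene, had 79.3 and 71.2 CPM in DMSO and 55.5, 61.6 and 56.0 CPM in UNC1999. The groups were apart by -0.38 ± 0.11 (SE; edgeR adjusted p = 0.00746). With offsets TXNDC11 stood at -0.07 (edgeR adjusted p = 0.557), and without DMSO replicate 1 at -0.30 (edgeR adjusted p = 0.175).

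CALR, calreticulin, was the most abundant of the ER genes, with 1348 reads per kilobase of transcript, scaled to library size (RPKM) in DMSO on average. P4HB followed with 404 RPKM, then HSPA5 with 255 and PDIA6 with 253, and those last 2 do not differ beyond their spread. The CPM of CALR was 2488 and 2641 in DMSO, against 1936, 1850 and 1991 in UNC1999. It fell by 0.41 on the log2 scale (SE 0.10; edgeR adjusted p = 0.00195), with no overlap between groups. The offsets gave -0.14 (edgeR adjusted p = 0.0929), and leaving out DMSO replicate 2 gave -0.36 (edgeR adjusted p = 0.0866). CALR made up 25.4% of the summed CPM of the 38 genes in DMSO and 23.3% in UNC1999.

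The J-domain cofactors of HSPA5, which deliver clients to it, went in different directions. DNAJB11 had 187 and 191 CPM in DMSO and 126, 148 and 131 CPM in UNC1999, a change of -0.49 ± 0.11 (SE; edgeR adjusted p = 0.000594). Its offset value rested on the transcript chosen, from -0.83 to -0.10, and with the longest basic coding one the call was lost (edgeR adjusted p = 0.26), while the other 2 definitions kept it. DNAJC3 (p58IPK), which also inhibits the eIF2-alpha kinase of the ER, had 36.9 and 40.2 CPM in DMSO and 66.0, 69.0 and 60.3 CPM in UNC1999. It rose in every treated library, by 0.76 ± 0.12 (SE; edgeR adjusted p = 7.11e-06), and by 0.39 with offsets (edgeR adjusted p = 0.000816).

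DNAJC10 (ERdj5), a disulfide reductase that acts in degradation, had 46.8 and 39.8 CPM in DMSO and 61.4, 59.3 and 51.1 CPM in UNC1999. The change was 0.40 ± 0.12 (SE; edgeR adjusted p = 0.00901) with groups apart. Offsets turned it to -0.30 (edgeR adjusted p = 0.0142), using a transcript of 20129 bases. The median transcript definition gave 0.06 (edgeR adjusted p = 0.672). Without DMSO replicate 2 it was 0.30 (edgeR adjusted p = 0.198), and without UNC1999 replicate 1 it was 0.36 (edgeR adjusted p = 0.0517). Its direction therefore depends on the processing.

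HSPA5, chosen here after its values were seen because it is the central ER chaperone, had 927 and 1064 CPM in DMSO and 730.0, 889 and 758 CPM in UNC1999. UNC1999 replicate 2 came close to the lower DMSO library. The change was -0.33 ± 0.11 (SE; edgeR adjusted p = 0.0181), and the offsets gave -0.15 (edgeR adjusted p = 0.0796). The median transcript definition gave -0.27 and kept the call (edgeR adjusted p = 0.00161). Leaving out any library except UNC1999 replicate 2 ended the call: the edgeR adjusted p was 0.0633 and 0.337 without DMSO replicates 1 and 2, and 0.16 and 0.0815 without UNC1999 replicates 1 and 3. The other folding genes called, also named after their values were seen, were HYOU1 (-0.33) and PDIA5 (-0.48) lower, and UGGT2 (0.81) and HSP90B1 (0.28) higher, on the log2 scale. With offsets they were at -0.19, -0.13, 0.40 and 0.20 in that order, and PDIA5 and UGGT2 were not called (edgeR adjusted p = 0.549 and 0.214). The median definition gave UGGT2 0.61, called (edgeR adjusted p = 0.0484), and left HYOU1 at -0.16, not called (edgeR adjusted p = 0.0779). HSP90B1 was not called with either other definition, at 0.13 with the longest transcript of any type and 0.135 with the median (edgeR adjusted p = 0.135 and 0.0998). Single libraries decided these calls too. HYOU1 lost it without either DMSO library or UNC1999 replicate 1 (edgeR adjusted p up to 0.29), and PDIA5 without DMSO replicate 1 or UNC1999 replicate 3 (up to 0.33). UGGT2 lost it without DMSO replicate 1 or UNC1999 replicate 1 (up to 0.235), and HSP90B1 without any library other than UNC1999 replicate 2 (up to 0.332).

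The 7 folding genes that did not pass were MANF, CANX, P4HB, CRELD2, UGGT1, DNAJB9 and SDF2L1. Log2 fold changes of the 11 uncalled genes of all classes ran from -0.19 to 0.19, and the smallest edgeR adjusted p among them was 0.178. CANX, calnexin, had 555 and 589 CPM in DMSO and 620.5, 688 and 643 CPM in UNC1999, where its soluble counterpart CALR was lower. CANX was at 0.19 ± 0.11 (SE; edgeR adjusted p = 0.178). With offsets CANX stood at -0.02 (edgeR adjusted p = 0.845) and CALR at -0.14, and neither was called. MANF, a secreted ER stress protein, had groups that did not overlap, and among the leave-out fits it passed only without UNC1999 replicate 2 (-0.22; edgeR adjusted p = 0.0156). With offsets MANF turned to 0.06 (edgeR adjusted p = 0.57).

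Among 10 tested degradation genes, 4 fell, 2 rose and 4 did not pass, with a median of -0.14. Those shares, 40% lower and 20% higher, stand beside 19.4% and 15.7% over all 13137 genes. SEL1L, the scaffold of the main ERAD ubiquitin ligase, had 30.7 and 34.3 CPM in DMSO and 61.4, 59.3 and 58.6 CPM in UNC1999. All 3 treated libraries were nearly level with each other and far above the solvent pair, or 0.88 ± 0.12 higher on the log2 scale (SE; edgeR adjusted p = 8.19e-07). The offsets gave 0.41 (edgeR adjusted p = 0.000638). Its ligase partner SYVN1 (HRD1) had 95.3 and 95.7 CPM in DMSO and 97.2, 76.2 and 103 CPM in UNC1999. Those groups overlapped, at -0.05 ± 0.12 (SE; edgeR adjusted p = 0.784).

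EDEM3, an enzyme that trims mannose from misfolded glycoproteins, had 14.9 and 14.4 CPM in DMSO and 26.4, 28.3 and 29.4 CPM in UNC1999. It had the highest fold change of the 36 genes, 0.94 ± 0.14 (SE; edgeR adjusted p = 2.9e-06), and 0.47 with offsets (edgeR adjusted p = 0.00239). The related EDEM1 and EDEM2 were not called, at -0.18 ± 0.11 and -0.09 ± 0.12 (SE). With offsets they were at -0.16 and 0.15 (edgeR adjusted p = 0.0981 and 0.206). Among the leave-out fits EDEM1 was called lower only without UNC1999 replicate 2 (-0.26; edgeR adjusted p = 0.0119).

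HERPUD1, a membrane protein gene of the ligase complex with the ER stress element II, had 43.2 and 39.6 CPM in DMSO and 30.4, 28.995 and 27.2 CPM in UNC1999. Its change was -0.52 ± 0.12 (SE; edgeR adjusted p = 0.000979). The offsets gave -0.18 (edgeR adjusted p = 0.153), and leaving out DMSO replicate 1 gave -0.45 (edgeR adjusted p = 0.0504). OS9, a lectin that brings glycoproteins to SEL1L and the most abundant of this class, had 216 and 229.6 CPM in DMSO and 161, 172 and 170.1 CPM in UNC1999. It fell by 0.41 on the log2 scale (SE 0.11; edgeR adjusted p = 0.0025). With offsets OS9 was at -0.17 (edgeR adjusted p = 0.0576), and without DMSO replicate 2 at -0.36 (edgeR adjusted p = 0.0829).

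The derlins, membrane proteins through which ERAD clients pass, were both lower. DERL1 had 154 and 149 CPM in DMSO and 105, 119 and 109 CPM in UNC1999, a change of -0.45 ± 0.11 (SE; edgeR adjusted p = 0.00135) that was -0.34 with offsets (edgeR adjusted p = 0.000244) and from -0.57 to -0.29 over the 3 definitions. Without DMSO replicate 1 the edgeR adjusted p of DERL1 was 0.0538, at -0.41. DERL2 had 31.9 and 34.5 CPM in DMSO and 24.5, 27.7 and 24.1 CPM in UNC1999, or -0.38 ± 0.13 in log2 fold change (SE; edgeR adjusted p = 0.0165). The drop was larger with offsets, at -0.71 (edgeR adjusted p = 1.06e-06), and -0.31 with the median transcript definition. The DERL2 call without offsets was lost when any library other than UNC1999 replicate 2 was left out (edgeR adjusted p up to 0.172).

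**Figure D4:**
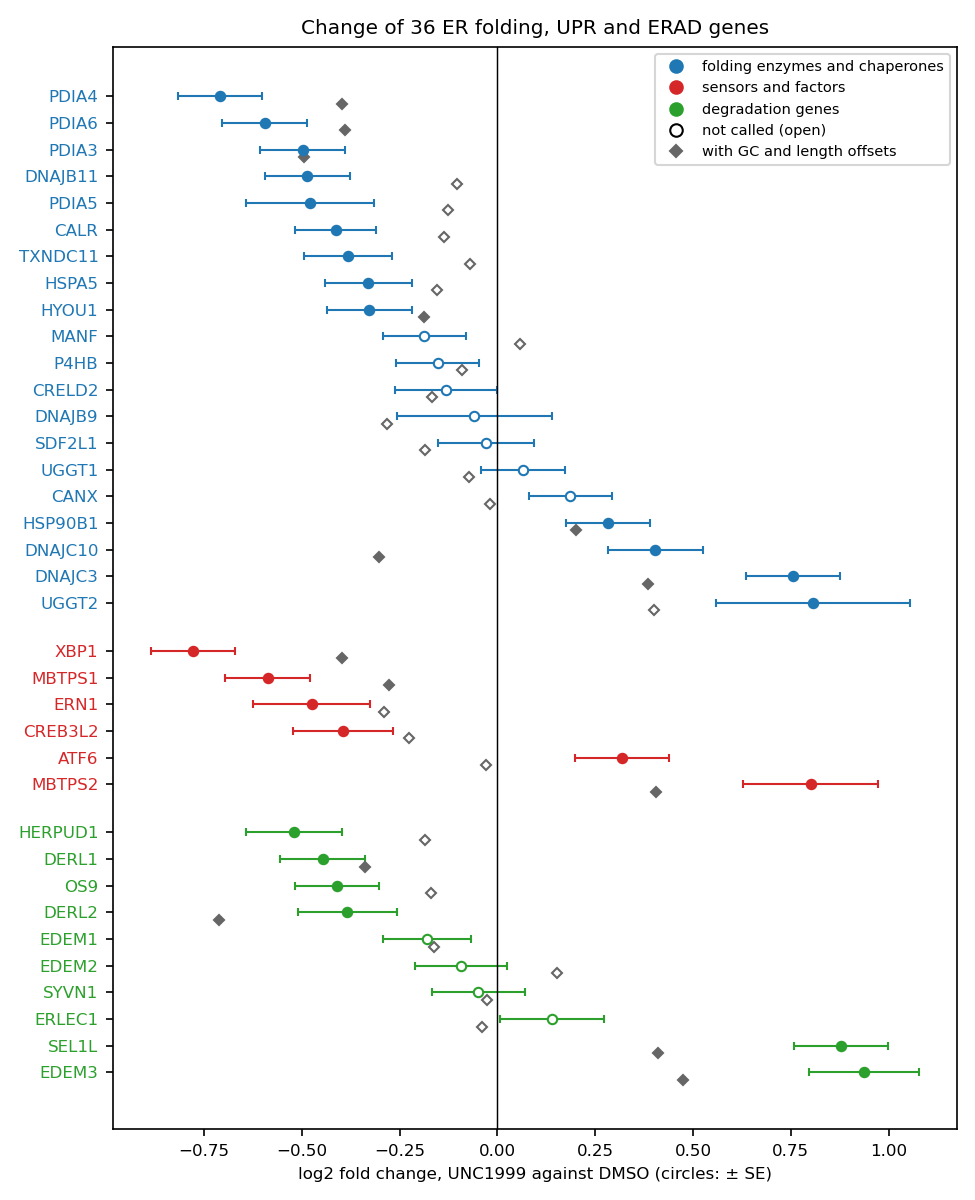
Log2 fold change of UNC1999 over DMSO (horizontal axis) for each of the 36 tested genes, by class. Circles with bars are the value ± SE, filled where the edgeR adjusted p was under 0.05, and diamonds are values with GC and length offsets, filled likewise. Most diamonds lie nearer 0 than their circles, and XBP1, PDIA4 and PDIA6 on the left and SEL1L, EDEM3 and DNAJC3 on the right are filled on both.

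TXNDC5, another disulfide isomerase, and DERL3 had 0 counts in every library. In GENCODE 29, 60.6% of TXNDC5 exonic bases also belong to a readthrough gene on the same strand, BLOC1S5-TXNDC5, which was at 0 as well. For DERL3, 77% of exonic bases lie opposite SMARCB1. Reads from shared bases can be left unassigned by gene counting, but these overlaps leave other exonic bases unshared. The annotation and strand setting of the counting are not given, so no upper limit was set for either gene.

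Over 20 alternative settings, 7 of the 25 called genes kept their direction and call in all. These were XBP1, MBTPS1, PDIA4 and PDIA6, which fell, and SEL1L, EDEM3 and DNAJC3, which rose. In 12 of the 17 genes that fell, UNC1999 replicate 2 was the treated library nearest to DMSO, against 0 of the 8 that rose and 14 of all 36. It was the highest treated library in 21 of the 36. No such share was taken over all genes. Between groups with no overlap at all, 20 of the 36 genes were lower and 10 higher, beside 30.3% lower and 24.2% higher over all 13137 genes.

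Genes with the ER stress element did not move as one. Of the 7, XBP1, PDIA6, CALR and HSPA5 fell, HSP90B1 rose, and CANX and CRELD2 did not pass. All counts in this paragraph stand beside 19.4% lower and 15.7% higher over all genes, or 18.7% and 14.5% with offsets. With offsets XBP1 and PDIA6 were lower under all 3 transcript definitions. HSP90B1 was higher under the longest basic coding transcript but under neither other definition, and HSPA5 was lower under the median definition but not under the other 2. Outside the 38 genes, 8 others with the element were tested, and FICD was the 1 that was called, at -0.44 (edgeR adjusted p = 0.0097). With offsets FICD was at -0.08 (edgeR adjusted p = 0.632), and among those 8 SERP1 was then called lower (-0.23) and TMEM120A higher (0.31), both chosen here after their values were seen. Of the 3 genes with element II, HERPUD1 and HYOU1 fell and SDF2L1 was at -0.03 ± 0.12 (SE), and 10 others with it held 2 called higher and 0 lower, or 3 and 0 with offsets.

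Further ER genes from 6 lists showed calls in both directions, to be read against 19.4% lower and 15.7% higher over all genes. Of 25 tested genes for redox and other folding enzymes, 5 fell (20%) and 4 rose (16%), shares near those of all genes. The falls included PRDX4, an ER peroxiredoxin (-0.62; edgeR adjusted p = 5.79e-05), and MESDC2, a receptor chaperone (-0.55). TMX3, a membrane disulfide isomerase, rose by 0.84 (edgeR adjusted p = 4.14e-06), and ERO1A, the oxidase that recharges the isomerases, by 0.47. With offsets PRDX4 was at -0.28, MESDC2 at -0.30, TMX3 at 0.42 and ERO1A at 0.07, the last not called (edgeR adjusted p = 0.53). Of 7 glucosidases and ER mannosidases, MLEC, a lectin gene for glucosylated chains counted with them, fell by 0.74 on the log2 scale (edgeR adjusted p = 1.94e-06), while the mannosidases MAN1A2 (0.45) and MAN1A1 (0.37) rose (14.3% lower, 28.6% higher). Offsets gave -0.51 for MLEC, -0.09 for MAN1A2 (edgeR adjusted p = 0.5) and 0.22 for MAN1A1 (edgeR adjusted p = 0.0219).

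Of 30 further ERAD genes, 11 fell (36.7%) and 4 rose (13.3%), and with offsets 9 fell and 1 rose. VIMP, which recruits the ATPase VCP to the ER membrane, went from 80.9 and 90.2 CPM to 44.9, 56.5 and 53.3 CPM, a change of -0.73 (edgeR adjusted p = 7.7e-06) and of -0.36 with offsets. VCP itself, the ATPase that pulls clients out of the membrane, went from 772 and 759 CPM to 506, 540.1 and 515 CPM, a change of -0.56 (edgeR adjusted p = 7.1e-05) and of -0.27 with offsets. ATXN3, a deubiquitinase, and NGLY1, which strips glycans, rose by 0.71 and 0.53. Offsets put ATXN3 at 0.23 (edgeR adjusted p = 0.335) and NGLY1 at 0.38 (edgeR adjusted p = 0.0103).

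Among 11 further UPR genes, 3 fell and 3 rose (27.3% each). RTCB, the ligase that joins the XBP1 exons after ERN1 cuts them, fell with 152 and 149 CPM in DMSO and 84.5, 102 and 79.9 CPM in UNC1999, a change of -0.76 (edgeR adjusted p = 2.9e-06) and of -0.38 with offsets (edgeR adjusted p = 0.000117). TMBIM6, a membrane protein known to restrain ERN1, was at -0.60 (edgeR adjusted p = 5.35e-05), and at -0.27 with offsets. MAP3K5, a stress kinase, rose by 0.70 (0.83 with offsets), and EIF2AK3 (PERK), the ER kinase of eIF2-alpha, had 29.7 and 30.2 CPM in DMSO and 41.0, 37.1 and 39.8 CPM in UNC1999. That was 0.39 (edgeR adjusted p = 0.0121), and 0.41 with offsets (edgeR adjusted p = 0.00232).

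Upstream of folding, 9 of 24 tested translocon and signal peptidase genes fell (37.5%) and 2 rose (8.33%). SEC11C, a catalytic subunit of the signal peptidase, fell by 0.74 on the log2 scale (edgeR adjusted p = 1.55e-05), and SRPRB, a subunit of the receptor that docks ribosomes, by 0.64. SEC63, a cofactor of the translocon, rose by 0.41 and SPCS3, another signal peptidase subunit, by 0.29. With offsets SEC11C was at -0.98 and SRPRB at -0.30, and neither SEC63 nor SPCS3 was called or above 0 (edgeR adjusted p = 0.979 and 0.271). Of 11 oligosaccharyltransferase genes, which attach sugar chains, 3 fell (27.3%) and 2 rose (18.2%). The catalytic subunits parted: STT3A was at -0.64 (edgeR adjusted p = 3.15e-05) and STT3B at 0.37 (edgeR adjusted p = 0.00972). With offsets STT3A was at -0.67 and STT3B at 0.16 (edgeR adjusted p = 0.117). RPN1 fell by 0.58 on the log2 scale and MAGT1 rose by 0.59, the last a subunit of the STT3B form. Their offset values were -0.20 and 0.34.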

How the data were processed

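Trizol was used for total RNA and an NEBNext Ultra kit for libraries, per the labels' protocols. The authors deposited raw counts, whole numbers of reads for each gene symbol, in 1 column per library. HTSeq 0.13.5, STAR 2.7.9, edgeR 3.34.0, fastp and the build hg19 are named in the submitters' processing notes without roles or settings. No source used here gives the annotation, strand or multi-mapping rules. Reads of overlapping genes may therefore be lost or shared.

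Genes with at least 10 counts in at least 2 libraries (13137 of 57221) entered edgeR 4.0.16 (R 4.3.3) with TMM scaling and the quasi-likelihood F-test, Benjamini-Hochberg over all tested genes, threshold 0.05. CPM values are TMM-scaled. The limit at 0 counts is 3 counts (0.327 to 0.373 CPM), for counting error only. The steps were tested on simulated data.

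Members, lists and tests were chosen with earlier results of these data known. Values were given for all 6 sensors, and in the other classes for up to 8 called genes with the smallest p plus the most abundant; of each further list, the 2 called genes with the smallest p per direction were named. Offsets were splines of how far each library lay from the mean over libraries, with 6 degrees of freedom in GC content and 4 in length, from GENCODE 29 (GRCh38), with no conversion of coordinates. The plan named these offsets but gave no transcript definition. The longest transcript of any type was run first, then the median over basic coding transcripts, then the longest basic coding transcript, and the last was kept after all 3 results were seen. RPKM uses the length of that transcript.

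Alternatives were DESeq2 1.42.0 size factors and Wald test, upper-quartile or no factors, other filters, robust dispersion, limma-voom 3.58.1, a replicate block, the offsets and leaving out each library. A fit on genes with a known GC content and length, and the other 2 transcript definitions, were added after seeing the data.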

Additional observations from a re-analysis of the deposited data

How the results depend on the processing

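Precision rests on 2 and 3 libraries of about the same depth, and low genes such as UGGT2 and DNAJB9 have the widest errors. Transcript forms, XBP1 splicing and strand were not measured. Unless said otherwise, causes of the shifts below were not tested.

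Of the 25 called genes, 7 kept their call in all 20 settings, 10 in all 4 offset settings and 9 whichever library was left out. The offset fits were run with 3 transcript definitions, and the one used in the text was kept after all were seen. Genes lower and higher among the 36 were 9 and 5 with it (folding 5 and 2, sensors 2 and 1, degradation 2 lower), 10 and 4 with the longest transcript of any type (folding 1 higher, sensors 2 and 1, degradation 2 lower), and 11 and 4 with the median over basic transcripts (folding 2 higher, sensors 0 higher, degradation 2 lower). Offsets with a replicate block gave 8 and 4 (folding 4 and 1, sensors 2 and 1, degradation 2 lower), and 1681 lower and 1192 higher over all genes.

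Whether the numbers pair the libraries is not known. Deviations of same-numbered libraries from their group means correlated at 0.084 and 0.032. The deviations of the 2 DMSO libraries mirror each other, and differently numbered libraries were not compared, so these values cannot decide it. With a replicate block and no offsets, 14 genes were lower and 6 higher (sensors 1 higher), and over all genes 2139 and 1890.

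With no normalization factors the median of all genes moved by 0.10, and 1739 were lower and 2943 higher, against 2546 and 2056. The 36 genes then gave 10 lower and 9 higher (folding 5 lower, sensors 2 lower). Upper-quartile factors gave 2049 lower and 2582 higher over all genes. The DESeq2 Wald test gave 2 sensors lower and 1 higher, and with no filter 1 sensor was higher.

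Leaving out each library gave 1192 to 3034 lower and 1142 to 2858 higher over all genes. For the 36 genes it gave 8 to 19 lower and 5 to 8 higher: folding 5 to 10 and 1 to 4, sensors 2 to 4 and 1 to 2, degradation 1 to 5 lower.

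Log2 fold changes that changed sign were those of uncalled genes, ATF6 and DNAJC10. With offsets the changed values were CANX -0.0198, ATF6 -0.0298, EDEM2 0.151, DNAJC10 -0.303, MANF 0.0573, UGGT1 -0.0738 and ERLEC1 -0.0405. With the block added they were CANX -0.0392, ATF6 -0.0325, EDEM2 0.148, DNAJC10 -0.221, MANF 0.0789, UGGT1 -0.0938 and ERLEC1 -0.0773. The longest transcript of any type gave ATF6 -0.0069, EDEM2 0.136, SYVN1 0.0262, DNAJC10 -0.294, MANF 0.156, CRELD2 0.0949, UGGT1 -0.063 and ERLEC1 -0.0179. The median definition gave CANX -0.122, ATF6 -0.114, EDEM1 0.0011, EDEM2 0.174, MANF 0.0795, UGGT1 -0.178 and ERLEC1 -0.112. No factors gave EDEM2 0.0101, SYVN1 0.0521, DNAJB9 0.0462 and SDF2L1 0.072, and upper-quartile factors SYVN1 0.016, DNAJB9 0.0075 and SDF2L1 0.036. The replicate block alone gave DNAJB9 0.0445 and the stricter filter SDF2L1 0.0085. Leaving out each library gave -0.139 to 0.081 for SYVN1, -0.189 to 0.0532 for DNAJB9, -0.191 to 0.174 for SDF2L1 and -0.351 to 0.149 for CRELD2.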
